A study of Homo sapiens with 3 samples.

Results

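Cells of NCI-H1299, a human lung cancer line, were transfected with miR-34a and compared with a mock culture of the same line, 1 expression array a side, and the comparison covers the 19775 genes that the array names. No gene was chosen by its values: every gene with a platform annotation entered, and 11917 of 19775 had a signal high enough to be described (68.59 or more as the mean over the arrays, the median of all probe sets). NCI-H1299 was derived from a lymph node metastasis of a non-small cell lung carcinoma, and it makes no p53 protein. The miR-34a culture received the RNA at 25 nM with the lipid reagent Lipofectamin RNAiMAX (spelled as in the labels) and was collected after 48 hours. The mock culture is labelled only as mock, so what it received is not known, and no unrelated small RNA served as a control in these data. A further culture received ghR-34a at the same dose and time, which the labels do not describe. Its array counts in the mean signal that decided which genes were kept and which probe set stood for a gene. Beyond this mean signal level, it enters only where its signal is quoted. All 3 arrays carry RNA of cultures grown in RPMI-1640 with FBS, a bovine serum, and each came from 250 ng of total RNA.

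With 1 array for each condition there is no measure of the spread between cultures, so no difference below carries a test. Differences are given as log2(signal + 32) of miR-34a minus mock, where signal is the linear probe-set intensity that the authors deposited, and a gene is called 2-fold lower or higher where that value reaches 1 in size. Values in brackets after a gene or its signals are these log2 differences. The added 32 makes the differences of dim genes smaller than those of the signal itself. A probe set is a group of short probes for a stretch of a transcript, and many genes have several, so probe sets that agree show that the difference is not limited to 1 stretch. They were read on the same 2 arrays and are not replicates of the transfection. The array reads the level of RNA in the whole culture, so fewer cells of a kind and less RNA per cell cannot be told apart, and a block of translation is not seen.

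The study used these arrays to look for mRNAs that miR-34a lowers through decay of the transcript. A microRNA guides an Argonaute complex to mRNAs that pair with its seed, the bases 2 to 8 of the mature strand, so microRNAs with one seed share many targets. The mature strands are shown to let the seeds be compared, with the seed in capitals, 5′ to 3′, as RefSeq lists them for GRCh38.p14.
hsa-miR-34a-5p: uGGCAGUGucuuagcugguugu
hsa-miR-449a: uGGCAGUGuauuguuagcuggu
hsa-miR-449b-5p: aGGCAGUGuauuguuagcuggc
hsa-miR-34b-5p: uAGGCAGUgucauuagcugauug
hsa-miR-449c-5p: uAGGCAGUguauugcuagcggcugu
Of 2545 mature strands in the table, 3 carry the seed GGCAGUG: miR-34a-5p (chr1:9151735-9151756, minus strand), miR-449a (chr5:55170586-55170607, minus strand) and miR-449b-5p (chr5:55170706-55170727, minus strand). The seeds of miR-34b-5p (chr11:111512950-111512972, plus strand) and miR-449c-5p (chr5:55172313-55172337, minus strand) hold the same letters moved by 1 base, as AGGCAGU. The count covers only the strands in that table, so other members of these families may carry the seed GGCAGUG too. The mature miRNA was not measured on these arrays, so its level after transfection is not given.

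As background, the miR-34 genes are transcribed by p53, and their products lower cyclin-dependent kinases, cyclins and receptor kinases, with an arrest of the cell cycle in G1 in many tumour lines. The miR-34 and miR-449 families are also abundant in airway cells that carry many motile cilia, and animals that lack both families form too few of these cilia. A line without p53 protein lacks the usual inducer of miR-34a, and the transfected RNA supplies it from outside.

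Across the 11917 kept genes the median difference was 0.04 on the log2 scale, and the middle of the distribution ran from -0.19 to 0.25 (quartiles). A signal below mock by any amount was found for 5341 genes, which is 44.8% of those kept, so a share near 44.8% in a group below is the background. At least 2-fold lower signals were found for 136 genes (1.14% of kept genes) and at least 2-fold higher ones for 145 genes (1.22%). These shares are the background for counts past 2-fold in a group below. Differences past 3-fold were few, 9 genes lower and 15 higher. Brightness also depends on the probes, so signals are not set against each other as amounts of RNA. The lower genes had the brighter probe sets: their median signal level was 586, against 249.6 for the higher genes and 794 for all kept genes. Of the 136 lower genes 111 stood above the filter level on both arrays, and of the 145 higher genes 108 did. The values nearest to the limit were HNRNPA0 (-1.008) and AEN (-1.001) inside and MYB (-0.997) and SLC1A3 (-0.994) outside on the lower side. On the higher side STC1 (1.005) and YPEL2 (1.006) were inside, and BEND6 (0.998) and ZNF428 (0.998) were outside.

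**Figure D1:**
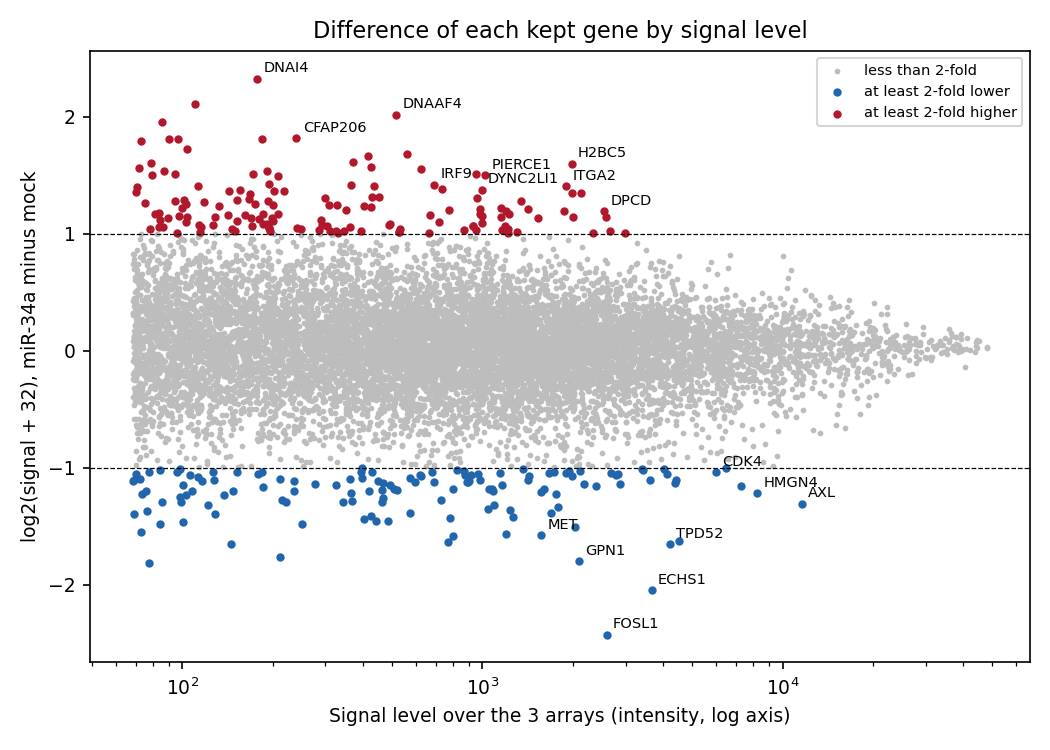
Each point is 1 of the 11917 kept genes, with its signal level over the 3 arrays on a log axis and its log2(signal + 32) difference, miR-34a minus mock, on the vertical axis, and dashed lines at 2-fold. Among the brightest genes the points past 2-fold lie nearly all below the lower line, with AXL, HMGN4 and CDK4 at the right and FOSL1 lowest at -2.43.

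The balance of lower and higher genes depended on signal. When the kept genes were split into 5 groups of equal size by signal level, the dimmest group (68.59 to 201) held 36 lower and 65 higher genes past 2-fold. In the brightest group (2692 to 48020) there were 18 lower genes and 1 higher. The spread of the differences, as an SD over genes, went from 0.463 in the dimmest to 0.291 in the brightest group. The part that dim signals have in the higher calls was not tested.

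**Figure D2:**
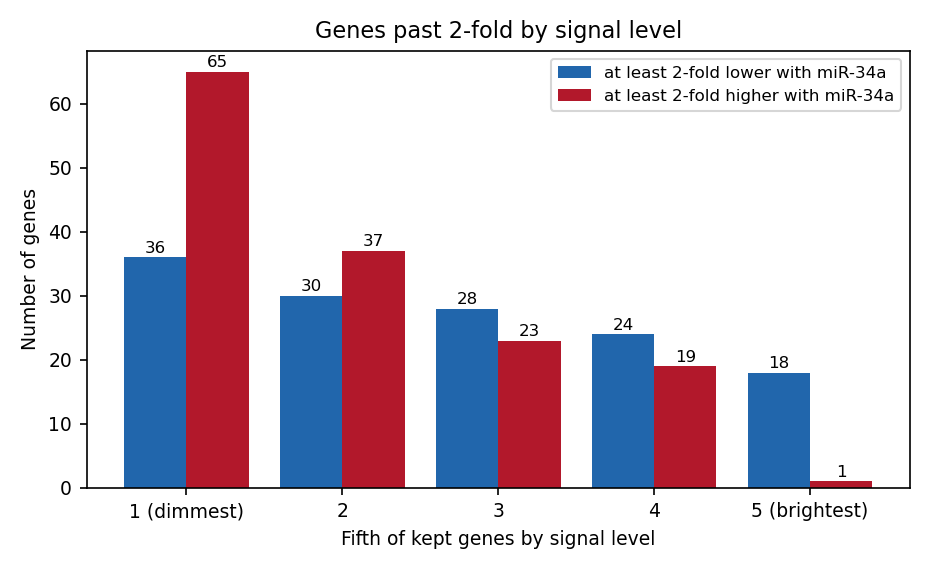
Bars count the genes past 2-fold in each direction in each of 5 equal groups of kept genes ordered by signal level. Higher genes outnumber lower ones in the dimmest group (65 and 36), and lower genes outnumber higher ones in the brightest (18 and 1).

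Among genes past 2-fold, the 5 brightest on the lower side were AXL, HMGN4, H2AZ2, HNRNPA0 and CDK4. AXL, a receptor tyrosine kinase for GAS6, had a signal of 20614 with mock and 8306 with miR-34a (-1.31). HMGN4, a nucleosome-binding protein, had a signal of 12768 with mock and 5478 with miR-34a (-1.22). HNRNPA0, an RNA-binding protein, had a signal of 8737 with mock and 4329.6 with miR-34a (-1.01). Its 3 probe sets ran from -1.01 to -0.79, so 1 of them reached 2-fold, and its value under the alternatives went up to -0.92. On the higher side the 5 brightest were STC1, CETN2, KIF9, DPCD and H2AC6, and the strongest of their miR-34a signals was 3819.8 (KIF9). CETN2, a centrin of the centriole, had a signal of 1765 with mock and 3626 with miR-34a (1.02). STC1, a secreted glycoprotein, had a signal of 1785 with mock and 3614 with miR-34a (1.005). CETN2 and STC1 lie close to the 2-fold limit and dropped below it at a pseudocount of 100 and after median centring.

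The lowest values among genes above the filter level on both arrays belonged to genes of several processes. FOSL1, which pairs with JUN proteins in AP-1 and is a reported miR-34a target, had a signal of 6509 with mock and 1183 with miR-34a (-2.43), the lowest value of all kept genes. ECHS1, the enoyl-CoA hydratase of mitochondrial fatty acid oxidation, had a signal of 6027 with mock and 1433 with miR-34a (-2.05). GPN1, a GTPase that helps bring RNA polymerase II into the nucleus, had a signal of 3217 with mock and 902 with miR-34a (-1.80). These 3 genes were each measured by 1 probe set above the filter, so no other stretch of the transcript was read. On the ghR-34a array GPN1 had 3162 and ECHS1 5668, both close to mock, whereas FOSL1 had 2253. SPCS2, a subunit of the signal peptidase, had a signal of 7684 with mock and 2469 with miR-34a (-1.63), and its other probe set had -0.63. RRAS, a small GTPase of the RAS family, had a signal of 1663 with mock and 534 with miR-34a (-1.58). Next to these stood UTS2R, a receptor for urotensin, with -1.77, and HMMR-AS1, an RNA antisense to HMMR, with -1.66. Each was measured by 1 probe set, with miR-34a signals of 76.8 and 70.5, close to the filter level of 68.59. UTS2R had 325.5 with ghR-34a, close to its mock signal of 338.1, and HMMR-AS1 had 136.0 against 291.2.

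On the higher side, with both arrays above the filter, the cilium genes DNAAF4 (2.02) and CFAP206 (1.82) led and are described with their group below. BIK, a BH3-only protein that promotes apoptosis, had a signal of 219.8 with mock and 768 with miR-34a (1.67). RAB40B, a small GTPase, had a signal of 313 with mock and 1074 with miR-34a (1.68), and its other probe set had 0.75. GJA1, the gap junction protein connexin 43, had a signal of 194 with mock and 660.5 with miR-34a (1.61). PLSCR4, a member of the phospholipid scramblase family, had a signal of 96.5 with mock and 339.7 with miR-34a (1.53), and BBOF1, a basal body protein, had a difference of 1.56. BIK, GJA1, PLSCR4 and BBOF1 were each measured by 1 probe set above the filter.

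Probe sets of a gene agreed the more, the larger the difference was. Of 6026 kept genes with at least 2 probe sets above the filter, the probe set used here and the others could be set against each other. Where the probe set used was at -1.5 or lower, the median of the others had the same sign in 100% of 6 genes. Between -1.5 and -1 that median had the same sign in 92.3% of 52 genes. Between -0.25 and 0 the share was 61.2% of 1618 genes. On the higher side it was 63.4% of 1891 genes between 0 and 0.25, 97.8% of 46 genes between 1 and 1.5, and 100% of 4 genes at 1.5 or more. A stricter rule asked for all probe sets above the filter to have one sign and at least 2 of them to pass 2-fold. It was met by 26 genes on the lower side (0.431% of 6026) and 21 on the higher side (0.348%).

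**Figure D3:**
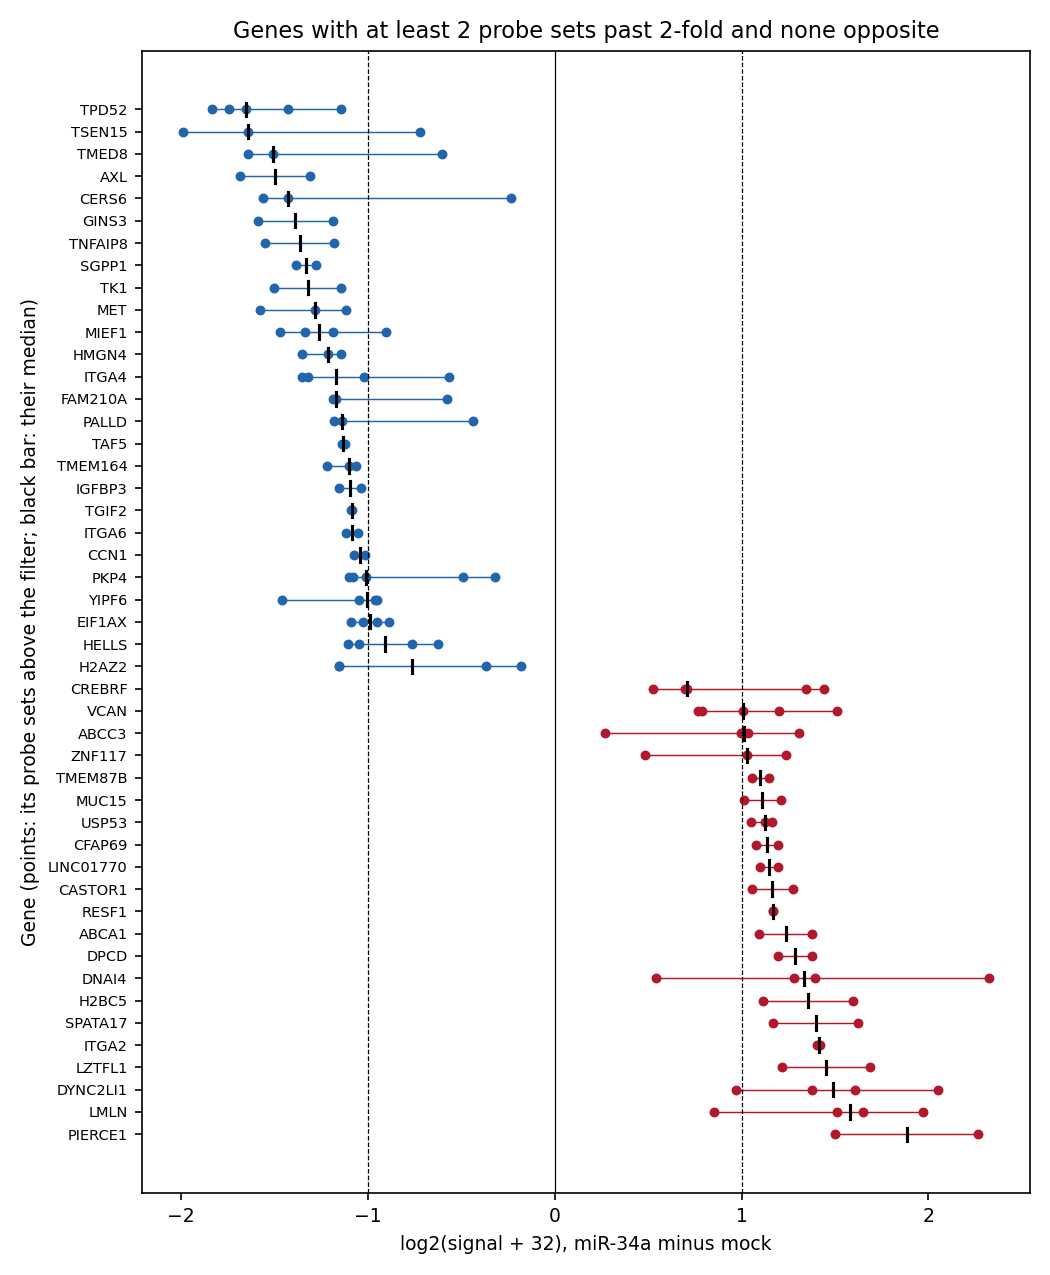
Each row is a gene with at least 2 probe sets past 2-fold and none of the opposite sign, 26 lower and 21 higher. Points are the log2(signal + 32) differences of its probe sets above the filter, black bars their median, and dashed lines mark 2-fold. All 5 probe sets of TPD52 lie beyond the lower line, whereas CERS6, PKP4 and H2AZ2 have probe sets close to 0.

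Several of the 26 genes lower in agreement encode receptors and adhesion proteins. TPD52, a protein of vesicle traffic, had a signal of 8834 with mock and 2786 with miR-34a (-1.65), with 5 probe sets from -1.84 to -1.15. MET, the receptor for hepatocyte growth factor, had a signal of 3269 with mock and 1072 with miR-34a (-1.58), with 3 probe sets from -1.58 to -1.12. The other probe set of AXL was lower still, at -1.69. In all 3 genes every probe set above the filter was at least 2-fold lower. ITGA4, the alpha 4 integrin chain, had a signal of 1508 with mock and 585 with miR-34a (-1.32), with 4 probe sets from -1.36 to -0.57. ITGA6, the alpha 6 chain of laminin-binding integrins, had a signal of 5122 with mock and 2449 with miR-34a (-1.05), and its other probe set had -1.12. PKP4, an armadillo-repeat protein of cell junctions, had -1.01 and probe sets from -1.10 to -0.32, and CCN1, a secreted matrix-associated protein, had -1.02. PKP4 and CCN1 lie close to the limit and came to less than 2-fold under some alternatives.

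Enzymes of sphingolipid metabolism were also among the genes lower in agreement. SGPP1, a phosphatase of sphingosine 1-phosphate, had a signal of 3295 with mock and 1242 with miR-34a (-1.38), and its 2 probe sets had -1.38 and -1.28. CERS6, a ceramide synthase, had a signal of 2051 with mock and 672 with miR-34a (-1.56), but 1 of its 3 probe sets had only -0.24. In the list of 40 kept genes of sphingolipid, phospholipid and acyl-CoA metabolism 22 were below mock (55.0%, against 44.8% of all kept genes) and the median was -0.04. Its 4 members past 2-fold (10.0%, against 1.14%), all lower, were CERS6, SGPP1, ACSL4 and AGPAT5. ACSL4, which activates arachidonic acid, had a signal of 739 with mock and 305 with miR-34a (-1.19). AGPAT5, an acyltransferase of phosphatidic acid synthesis, had -1.05 and a mean over its probe sets of -0.80. CERS5, a close relative of CERS6, had a signal of 1966 with mock and 977 with miR-34a (-0.99), just short of 2-fold. At the other end of the list CHKB, a choline kinase, had a signal of 622 with mock and 1260.4 with miR-34a (0.98).

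The remaining genes lower in agreement belong to several processes. TSEN15, a subunit of the tRNA splicing endonuclease, had a signal of 1469.8 with mock and 449.8 with miR-34a (-1.64). TMED8, a member of a family of cargo proteins of the secretory pathway, had a signal of 3616 with mock and 1249 with miR-34a (-1.51). TNFAIP8, induced by tumour necrosis factor, had a signal of 737 with mock and 307 with miR-34a (-1.18). Each of these had another probe set past 2-fold. MIEF1, which recruits the fission factor DRP1 to mitochondria, had -1.19 with 4 probe sets from -1.47 to -0.90. TAF5, a subunit of the general transcription factor TFIID, had -1.12, and TMEM164 had -1.22. IGFBP3, a binding protein of insulin-like growth factors, had a signal of 207 with mock and 84.8 with miR-34a (-1.04), the dimmest gene of the 26. HELLS, a chromatin remodeller, had -1.05, and PALLD, an actin-binding protein of stress fibres, had -1.18, with a mean of -0.92 over its probe sets. In 3 genes the probe set used fell short of 2-fold while at least 2 others passed it: FAM210A (-0.57), YIPF6 (-0.95) and EIF1AX (-0.95), a translation initiation factor. EIF1AX had a ghR-34a signal of 10924 against 10589 with mock, YIPF6 4882 against 4309, and ITGA6 5602 against 5122. In these probe sets the 3 genes were lower on the miR-34a array and above mock on the ghR-34a array. The other probe set of ITGA6 had a ghR-34a signal of 2751 against 3151 with mock, and 2 of the 4 probe sets of EIF1AX were also below mock there.

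Of genes reported elsewhere as miR-34a targets, listed from general knowledge, most were lower. The list was drawn up with earlier results of these data known, so its shares describe the members and test nothing. The cell cycle members of the list had 18 kept genes, of which 16 lay below mock, and 4 passed 2-fold, all lower, with a median of -0.81. The other members had 47 kept genes, 40 below mock, 12 past 2-fold and all of these lower, and a median of -0.58. For all kept genes the median was 0.04, the share below mock 44.8% and the share at least 2-fold lower 1.14%. Together both lists held 16 of the 136 genes at least 2-fold lower (11.8%), which is 24.6% of their 65 kept genes, and 0 of the 145 at least 2-fold higher. They held 4 of the 26 genes lower in agreement: TPD52, AXL, MET and TGIF2. Without the filter on low signals the median of the other targets was -0.28, since dim members then count.

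The 4 cell cycle targets past 2-fold were E2F5, NCAPH, MYBL2 and CDK4. CDK4, the cyclin D kinase, had a signal of 9385 with mock and 4558 with miR-34a (-1.04). CDK6, its partner in the same step, had a signal of 8761 with mock and 4554 with miR-34a (-0.94), and all 6 of its probe sets were lower, from -1.32 to -0.61. E2F5, an E2F family repressor, had a signal of 2389 with mock and 872 with miR-34a (-1.42). MYBL2, a transcription factor of late cell cycle genes, had a signal of 1726 with mock and 732 with miR-34a (-1.20). NCAPH, a subunit of condensin, had a signal of 771 with mock and 304 with miR-34a (-1.26). CDC25A, the phosphatase that activates cyclin-dependent kinases, had a signal of 894 with mock and 439.8 with miR-34a (-0.97), and its 2 probe sets had -0.97 and -0.96. E2F3 (-0.79), CCNE2 (-0.78) and FOXM1 (-0.87) were lower by less than 2-fold, and CCND1, cyclin D1, had -0.37. KIF23 (0.04) and HMGA2 (0.05) were the 2 members not below mock. HMGA2, a chromatin protein, had a signal of 24755 with mock and 25619 with miR-34a (0.05), and its 6 probe sets ran from -0.33 to 0.90.

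Outside the cell cycle, targets at least 2-fold lower included FOSL1, TPD52, RRAS, MET and AXL, given above. MAP2K1, the kinase MEK1 upstream of ERK, had a signal of 3478 with mock and 1563 with miR-34a (-1.14). ULBP2, a ligand of the natural killer cell receptor NKG2D, had a signal of 403 with mock and 158 with miR-34a (-1.20). PEA15, which binds ERK in the cytoplasm, had a signal of 3760.1 with mock and 1665 with miR-34a (-1.16), with its other probe set at -0.91. LEF1, a transcription factor of Wnt signalling, had a signal of 382 with mock and 152 with miR-34a (-1.17), and came to -0.93 at a pseudocount of 100. SIRT1, the deacetylase often studied as a miR-34a target, had a signal of 1618 with mock and 979.5 with miR-34a (-0.71). NOTCH2 had -0.74, whereas NOTCH1 had 0.39 and its ligand JAG1 0.25. CD44, an adhesion receptor reported as a target, had a signal of 9292 with mock and 8934 with miR-34a (-0.06), and its 12 probe sets lay between -0.06 and 0.26, so it differed little between the arrays. SEMA4B, the highest member, had 0.45.

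**Figure D4:**
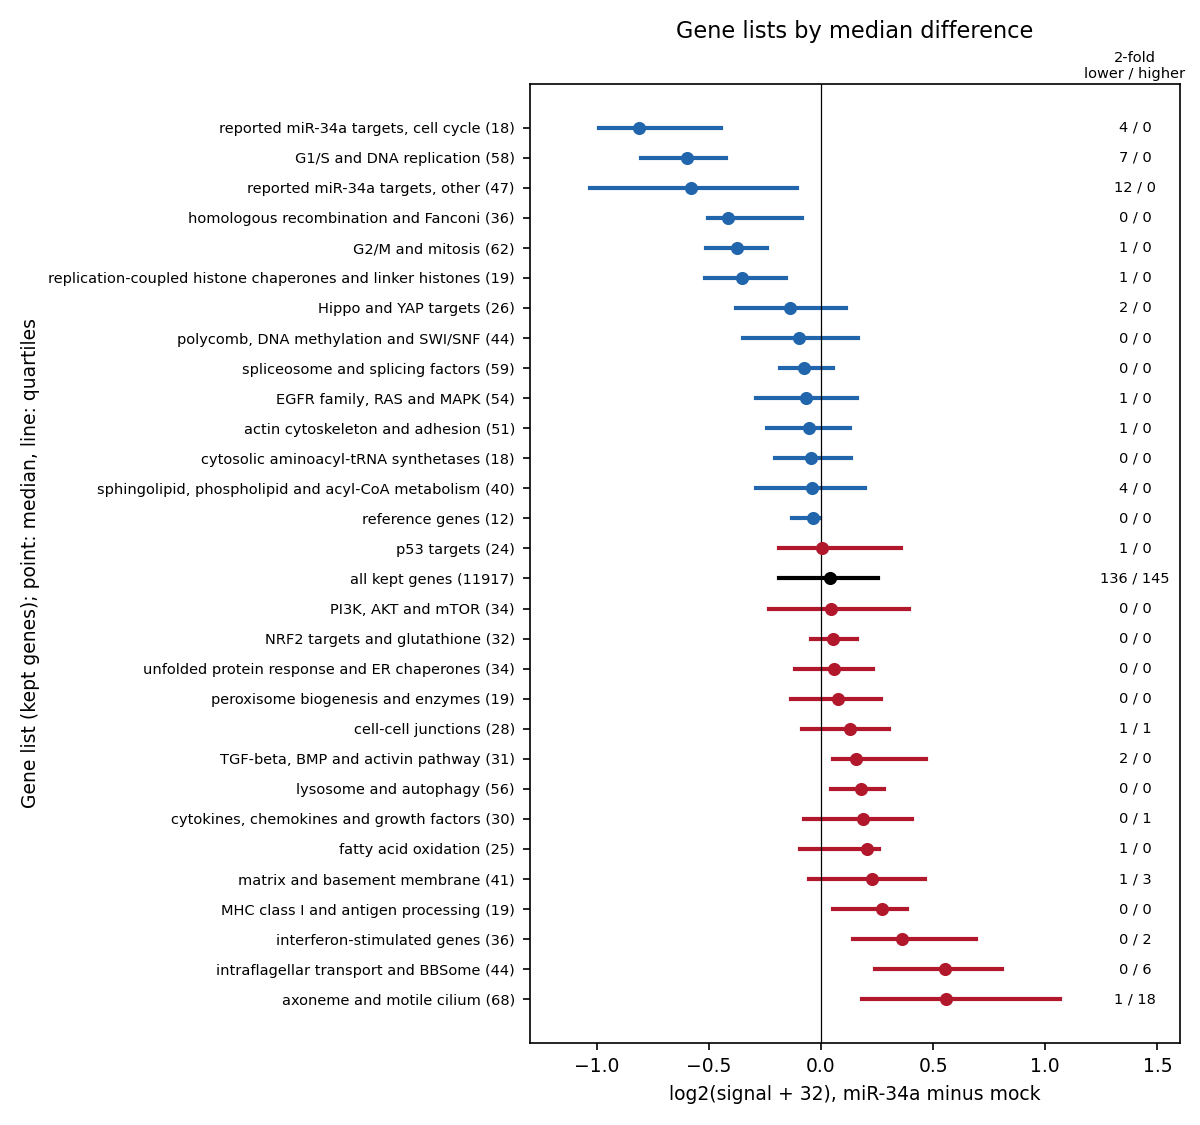
Each row is a gene list with its number of kept genes. The point is the median log2(signal + 32) difference, miR-34a minus mock, the line spans the quartiles over genes, and the numbers at the right count members past 2-fold on the lower and higher side. Target, cell cycle, repair and chaperone lists lie lowest (-0.81 to -0.35), cilium lists highest (0.55 and 0.56), and the black row is all kept genes at 0.04.

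DNA replication genes were lower almost throughout. The G1/S and replication list had 58 kept genes with a median of -0.60, and 57 of them lay below mock. On the lower side 7 passed 2-fold (12.1% of the 58, against 1.14% of all kept genes), and no member did on the higher side. In 28 of the 32 members with at least 2 probe sets above the filter, all probe sets were lower, and in 0 of 32 were all higher. Of all 6026 such kept genes, all probe sets were lower in 1517 and higher in 1909. The GINS complex, part of the replicative helicase, had its lowest members in GINS1 and GINS3. GINS1 had a signal of 3279 with mock and 1384 with miR-34a (-1.23). GINS3 had a signal of 883 with mock and 369.5 with miR-34a (-1.19), with its other probe set at -1.59. GINS2 (-0.75) and GINS4 (-0.64) were less far below mock.

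The MCM proteins form the ring of that helicase. MCM2 had a signal of 3145 with mock and 1477 with miR-34a (-1.07), and MCM3 had a signal of 5286 with mock and 2591 with miR-34a (-1.02). MCM5 (-0.99), MCM7 (-0.80), MCM6 (-0.69) and MCM4 (-0.53) were lower too, so that the 6 subunits of the ring spanned -1.07 to -0.53. TK1, the thymidine kinase of the nucleotide salvage pathway, had a signal of 1905 with mock and 843 with miR-34a (-1.15), and both its probe sets passed 2-fold. LIG1, the DNA ligase of the lagging strand, had a signal of 678 with mock and 314 with miR-34a (-1.04). E2F2, a transcription factor of S phase genes, had a signal of 854 with mock and 385 with miR-34a (-1.09), and the mean over its probe sets was -0.91. PCNA, the sliding clamp, had -0.67, and the ribonucleotide reductase subunits RRM1 and RRM2 had -0.51 and -0.50. The single-strand binding proteins RPA1 (-0.07) and RPA3 (-0.18) were nearer to mock, and CCNE1, cyclin E1, was the only member not below it (0.03).

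Mitotic genes were lower by less. In the G2/M and mitosis list the median over 62 kept genes was -0.37, and 59 lay below mock. A difference past 2-fold was found for 1 gene, on the lower side (1.61%, against 1.14% of all kept genes). SPC24, a subunit of the kinetochore complex NDC80, had a signal of 925 with mock and 435 with miR-34a (-1.03), and came to -0.94 at a pseudocount of 100. CDCA8 (-0.92), BIRC5 (-0.83) and AURKB (-0.82), which together with INCENP (-0.49) form the chromosomal passenger complex, were lower as well. CCNB1, cyclin B1, had a signal of 14048 with mock and 10846 with miR-34a (-0.37), and CDK1, the kinase it activates, had -0.25. TTK (-0.10), CENPE (-0.05) and CENPF (-0.02) were close to mock, and KIF18A, a kinesin of chromosome alignment, stood above it at 0.39. MKI67, the proliferation marker, had a signal of 1914 with mock and 1541 with miR-34a (-0.31).

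Most repair and chromatin assembly genes of S phase were below mock too. In homologous recombination and the Fanconi pathway 27 of 36 kept genes were below mock, none passed 2-fold and the median was -0.42. FANCE had -0.70, FANCL -0.61 and BRCA1 -0.50, while RAD50 (0.61) and TP53BP1 (0.55) were above mock. Of 19 histone chaperones and linker or variant histones, 18 were below mock, with a median of -0.35. The member above mock was H1-2, a linker histone, with a signal of 968 with mock and 1530 with miR-34a (0.64). H2AZ2, a histone H2A variant, had a signal of 10670.3 with mock and 4778 with miR-34a (-1.15), though its 4 probe sets ran to -0.18 and had a mean of -0.72. The CAF-1 subunits CHAF1B (-0.80) and CHAF1A (-0.54), which deposit histones behind the fork, and H2AX (-0.64) were lower than mock by less than 2-fold.

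Promoters of the cell cycle genes were read from the RefSeq table, 250 bases before to 50 after the annotated start, 1 promoter for each of 27305 genes. Motif letters were searched on both strands. Sites of the E2F factors were taken as TTTCGCGC, TTTGGCGC or TTTCCCGC. Of the 50 kept G1/S genes with a promoter in the table, 23 held such letters (46.0%), against 4.69% of 9760 kept genes with a promoter and 2.79% of all 27305. Among genes at least 2-fold lower 13 of 112 held them (11.6%), and among genes at least 2-fold higher 1 of 113 (0.885%). These stretches show the letters in capitals, with 20 bases on either side, in promoters of 4 members of the list.
MCM3, chr6:52284889-52284936, minus strand: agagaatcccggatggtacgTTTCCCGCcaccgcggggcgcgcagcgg
LIG1, chr19:48170431-48170478, minus strand: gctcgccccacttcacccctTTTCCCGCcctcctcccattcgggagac
E2F2, chr1:23531248-23531295, minus strand: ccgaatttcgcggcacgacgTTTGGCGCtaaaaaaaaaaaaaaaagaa
MCM6, chr2:135876568-135876615, minus strand: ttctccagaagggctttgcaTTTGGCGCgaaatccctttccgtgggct
All 4 are written on the gene's own strand and lie before the start in GRCh38.p14, with the match beginning 174, 114, 42 and 152 bases ahead of it. Over all 458 kept genes holding E2F letters the median difference was -0.05 and 57.4% were below mock. The 34 of them in the cell cycle, cell cycle target, repair and chaperone lists had a median of -0.67 with 97.1% below mock, and the 424 outside these lists had -0.03, with 54.2% below mock against 44.8% of all kept genes. A match is a string of letters, and binding of a factor was not measured.

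Mitotic promoters often hold the element TTTGAA and the box CCAAT. Of the 50 kept G2/M genes with a promoter, 36 held TTTGAA (72.0%, against 9.7% of kept genes) and 36 held CCAAT (72.0%, against 37.1%). Among the 50 kept G1/S genes with a promoter, 2 held TTTGAA (4.0%) and 29 held CCAAT (58.0%), so CCAAT was frequent in both lists. The 375 kept genes that hold both and are in none of the cell cycle or cell cycle target lists had a median of 0.03, and the 31 in those lists had -0.45.

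Most genes of cilia were above mock, and of the lists used here they held the most genes at least 2-fold higher. Cilia are hair-like organelles built on a microtubule axoneme, and motile ones beat by dynein arms. Of 111 measured genes of the axoneme and motile cilium 68 were kept, and 57 of these were above mock, with a median of 0.56. On the higher side 18 passed 2-fold (26.5% of the 68, against 1.22% of all kept genes), and on the lower side 1. In 15 of the 22 members with at least 2 probe sets above the filter all probe sets were higher, and in none were all lower. The counts over all 6026 such kept genes were 1909 all higher and 1517 all lower. Of 44 kept genes of intraflagellar transport and the BBSome, which carry cargo along the cilium, 43 were above mock, with a median of 0.55. At least 2-fold higher were 6 of them (13.6%). Both lists together held 24 of the 145 genes at least 2-fold higher (16.6%), or 21.4% of their 112 kept genes. They held 5 of the 21 genes higher in agreement. A gene dim with mock could be kept through its signal on the transfected arrays. Of the 24 genes, 17 had a mock signal at or above the filter level. Without the filter on low signals the median of the axoneme list was 0.32.

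Of 19 kept dynein heavy and intermediate chains, 5 were below mock and 3 at least 2-fold higher, with a median of 0.53, which was 0.21 with no filter and 0.11 with a filter at a signal of 200. The highest values of the axoneme list were in dynein arm chains and an assembly factor. DNAI4, an axonemal dynein intermediate chain, had a signal of 41.5 with mock and 337 with miR-34a (2.33), with 4 probe sets from 0.54 to 2.33. DNAAF4, an assembly factor of dynein arms, had a signal of 213 with mock and 962 with miR-34a (2.02). DNAI7 had a signal of 23.2 with mock and 181 with miR-34a (1.95). DNAI4 and DNAI7 began below the filter level with mock, and DNAAF4 did not. DNAAF9 had 1.15, ZMYND10, another assembly factor, had 0.78 and 2.20 in its 2 probe sets, and the outer arm chains DNAI1 and DNAH5 had 0.73 and 0.44. DNAH6, an inner arm heavy chain, went the other way: it had a signal of 312 with mock and 135 with miR-34a (-1.04). DNAH6 came to -0.81 at a pseudocount of 100.

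Proteins inside and along the axonemal microtubules were higher as well. PIERCE1, a protein of the microtubule lumen, had a signal of 539.9 with mock and 1584 with miR-34a (1.498), and its other probe set had 2.27. CFAP206, a radial spoke protein, had a signal of 99.3 with mock and 431 with miR-34a (1.82). CFAP299 had a signal of 44.0 with mock and 219 with miR-34a (1.72). OSCP1 had a signal of 194 with mock and 639.5 with miR-34a (1.57), and ROPN1L, a radial spoke protein, had 1.51. CFAP53 had 1.41, CFAP69 1.08, RSPH3 1.07 and SPEF1 1.22. Over genes named CFAP, 21 of 24 kept were above mock and 6 at least 2-fold higher, with a median of 0.49, which was 0.20 with no filter and 0.74 without cross-reacting classes of probe set. SPAG8 (-0.86) and TEKT2 (-0.43) were below mock, both dim.

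Transport genes past 2-fold included a motor chain, a BBSome regulator and subunits of the transport complexes. DYNC2LI1, a light intermediate chain of the motor that returns cargo from the tip, had a signal of 513 with mock and 1384 with miR-34a (1.38), with 4 probe sets from 0.97 to 2.05. LZTFL1, a regulator of the BBSome, had a signal of 868 with mock and 2057 with miR-34a (1.22), with its other probe set at 1.69. WDR19, also named IFT144, had a signal of 1141 with mock and 2655 with miR-34a (1.20), but its other probe set had 0.73, and their mean was short of 2-fold. IFT81 had a signal of 717 with mock and 1679.8 with miR-34a (1.19), and IFT88, a core subunit of the same complex, had a signal of 714 with mock and 1617 with miR-34a (1.14). IFT43 (0.92), IFT22 (0.81), DYNC2H1 (0.81) and BBS2 (0.74) were above mock by less than 2-fold. The anterograde motor subunits KIF3A and KIF3B had 0.46 and 0.24. DYNC2I2 was the member below mock (-0.08).

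**Figure D5:**
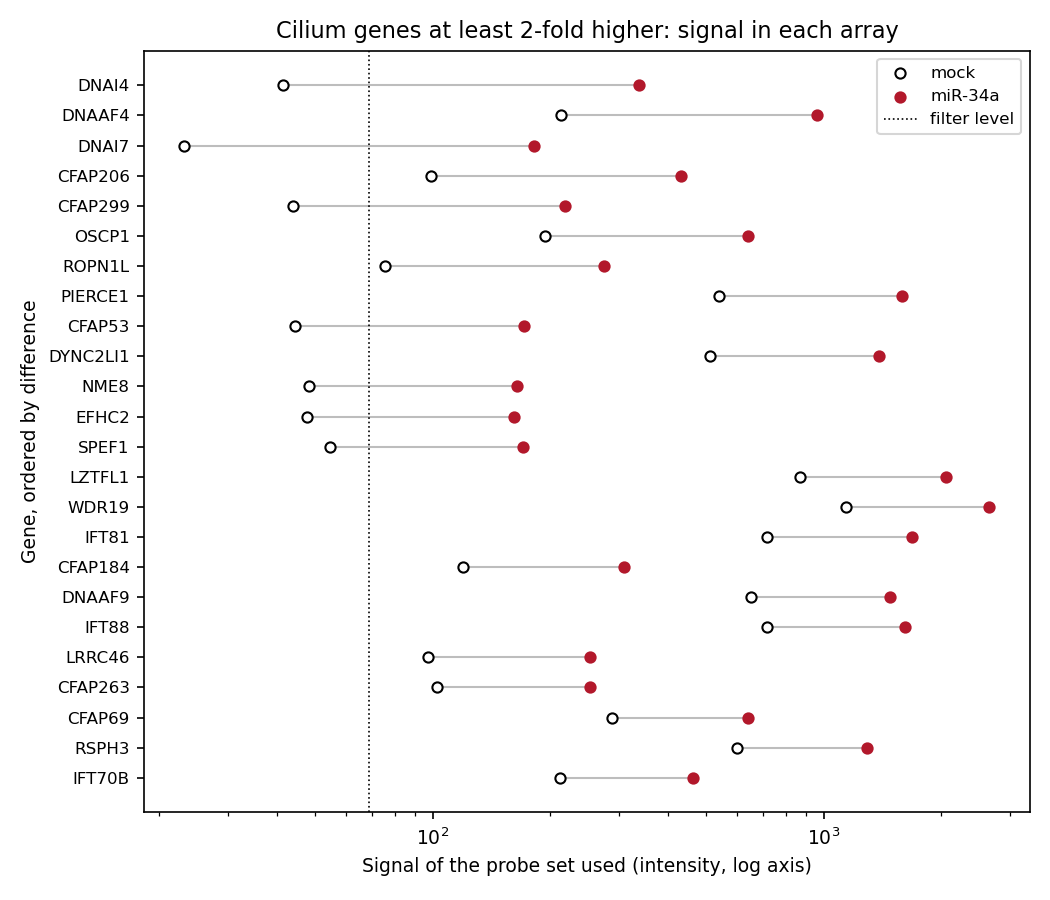
For the 24 cilium genes at least 2-fold higher, open points give the signal of the probe set used on the mock array and red points on the miR-34a array, on a log axis, with the filter level dotted. In 17 genes the mock signal is at or above the filter level, and IFT81, IFT88, WDR19, LZTFL1 and DYNC2LI1 start above 500.

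Of these 24 genes, 10 had at least 2 probe sets above the filter, and in 9 of the 10 all of them were higher. In RSPH3, the exception, 1 of 4 probe sets was at -0.01. Of all genes at least 2-fold higher, 50 had at least 2 such probe sets, and in 45 of the 50 all were higher. Outside the lists, 3 genes higher in agreement were grouped here after their values were seen. LMLN, a peptidase, had a signal of 514 with mock and 1524 with miR-34a (1.51), with 4 probe sets from 0.85 to 1.97. DPCD, a gene linked to dynein arm formation, had a signal of 1503 with mock and 3485 with miR-34a (1.20), and SPATA17 had 1.17, or 0.88 at a pseudocount of 100. FOXJ1, the master factor of motile cilia, was below the filter, at 36.9 with mock and 4.9 with miR-34a. RFX3, a factor of cilium genes, had 0.59, its relative RFX2 -0.14, and CCP110, a centriole cap protein reported as a miR-34 target in ciliated cells, had 0.36.

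The X-box, letters bound by RFX factors, was searched as GTTNCC and GGNAAC parted by any 2 bases. It was held by 2 of 53 axoneme genes with a promoter (3.77%) and 2 of 40 transport genes (5.0%), against 0.594% of kept genes. Over the 58 kept genes that hold it, the median was 0.15 and 29.3% were below mock, and for the 54 outside both cilium lists it was 0.14 with 31.5% below. These stretches show 2 of the matches, in capitals, in members above mock.
DNAH1, chr3:52316194-52316247, plus strand: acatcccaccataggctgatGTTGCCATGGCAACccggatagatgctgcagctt
ARL6, chr3:97764714-97764757, plus strand: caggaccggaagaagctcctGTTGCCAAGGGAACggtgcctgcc
The matches begin 105 and 24 bases ahead of the start. DNAH1, a heavy chain, had 0.78, with a mock signal of 67.9 just under the filter level, and ARL6, a GTPase that recruits the BBSome, had 0.62.

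Interferon-stimulated genes were higher by small amounts. Of 36 kept, 30 were above mock and the median was 0.36. Past 2-fold were 2, both higher (5.56%, against 1.22% of all kept genes). IRF9, the DNA-binding part of the factor ISGF3, had a signal of 405 with mock and 1138 with miR-34a (1.42). IFI6 had a signal of 601 with mock and 1434 with miR-34a (1.21). IFIT1, a sensor of foreign RNA ends, had a signal of 440.2 with mock and 885 with miR-34a (0.96), and IFIH1, the RNA sensor MDA5, had a signal of 574 with mock and 1094 with miR-34a (0.89). ISG15, a ubiquitin-like protein, had 0.69, but IFIT3 (0.17), OAS3 (0.23) and EIF2AK2 (0.15), from the same response, were close to mock. IFI35 (-0.51) and TRIM25 (-0.49) were below it. Because no unrelated RNA was transfected, a difference due to the sequence of miR-34a and one due to transfected RNA as such cannot be told apart.

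Of genes for MHC class I and antigen processing, 15 of 19 kept were above mock, none passed 2-fold, and the median was 0.27. HLA-C had a signal of 5846 with mock and 8126 with miR-34a (0.47), with 4 probe sets from 0.46 to 0.75, and HLA-B had 0.43. These genes are near copies of each other, so their probe sets may read more than 1 of them. B2M, the shared light chain, had 0.12, and the immunoproteasome subunits PSMB8, PSMB9 and PSMB10 had 0.25, 0.33 and 0.47. CALR, a chaperone of loading, was below mock at -0.54. Leaving out probe sets whose names mark possible cross-reaction brought the list's median to 0.07.

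The interferon response element was searched as GAAA, any 2 bases, then GAAA. Of 31 kept interferon genes with a promoter, 19 held it (61.3%), against 2.55% of kept genes. The letters are shown for 3 of the members named above.
IFI6, chr1:27672319-27672368, minus strand: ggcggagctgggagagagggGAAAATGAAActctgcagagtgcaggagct
IFIT1, chr10:89392487-89392536, plus strand: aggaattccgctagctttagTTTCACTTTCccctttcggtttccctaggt
IFIH1, chr2:162318685-162318725, minus strand: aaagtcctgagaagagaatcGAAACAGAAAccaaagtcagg
They begin 156, 116 and 21 bases ahead of the start, and in IFIT1 the match is on the other strand. The 222 kept genes that hold the element outside the interferon and MHC lists had a median of 0.07 with 40.5% below mock, and the 27 within them had 0.31 with 11.1% below.

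Histone genes of the clusters went opposite to the histone chaperones. Of 24 kept, 17 were above mock, with a median of 0.42. At least 2-fold higher were 5 (20.8%, against 1.22% of all kept genes), and none was lower at 2-fold. H2BC5 had a signal of 1066 with mock and 3292 with miR-34a (1.599), and its other probe set had 1.11. H2BC4 had a signal of 250.4 with mock and 671 with miR-34a (1.32), H2BC21 had 1.31, and H2AC6 had a signal of 1561 with mock and 3172 with miR-34a (1.01). H2BC3 began at 27.3 with mock, below the filter. H2AC14 (-0.62) and H4C11 (-0.49) were below mock. These genes are nearly identical in sequence and the probe set of H2BC5 is of a class that can cross-react, so the number of separate genes that differ is uncertain. H2AC6 and H2BC3 came to less than 2-fold at a pseudocount of 100, and the list's median was 0.15 with no filter.

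Integrin chains differed in both directions. Of 16 kept, 8 were below mock and 8 above, with 2 at least 2-fold lower (ITGA4 and ITGA6) and 2 at least 2-fold higher. Each count was 12.5% of the 16, against 1.14% lower and 1.22% higher of all kept genes. ITGA2, the alpha 2 chain of a collagen receptor, had a signal of 1184 with mock and 3189.6 with miR-34a (1.41), and its 2 probe sets had 1.41 and 1.42. ITGB8, a chain that activates latent TGF-beta, had a signal of 114 with mock and 378 with miR-34a (1.49). ITGB1, the beta 1 chain, had a signal of 22145 with mock and 22776 with miR-34a (0.04). ITGB1 pairs with the alpha chains of ITGA2, ITGA4 and ITGA6, and it was level between the arrays while these were not.

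Matrix genes were mostly above mock, 30 of 41 kept, with a median of 0.23. At least 2-fold higher were 3 (7.32%, against 1.22% of all kept genes), and 1 was at least 2-fold lower (CCN1). COL6A1, a chain of collagen VI, had a signal of 756 with mock and 1803 with miR-34a (1.22), but its 4 probe sets went down to 0.13. VCAN, the proteoglycan versican, had a signal of 463 with mock and 963 with miR-34a (1.01), and all 5 probe sets were higher, from 0.76 to 1.51. HSPG2, the basement membrane proteoglycan perlecan, had 1.06, LAMB1 0.80 and LOX, which cross-links collagen, 0.81. MMP1, a collagenase, had a signal of 534 with mock and 1242 with miR-34a (1.17). COL6A1, VCAN and HSPG2 each came to less than 2-fold under at least 1 alternative. Among junction genes the median was 0.13 over 28 kept, with GJA1 highest and PKP4 lowest.

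In the TGF-beta, BMP and activin pathway 24 of 31 kept genes were above mock with a median of 0.16, while 2 type I receptors and a corepressor were its lowest members. TGIF2, a corepressor of SMAD proteins, had a signal of 690.4 with mock and 307 with miR-34a (-1.09), with its probe sets at -1.09 and -1.08. ACVR1B, the activin receptor ALK4, had a signal of 1212 with mock and 569 with miR-34a (-1.05), with 4 probe sets from -1.05 to -0.25. TGFBR1, the TGF-beta receptor ALK5, had a signal of 2884 with mock and 1786 with miR-34a (-0.68). On the other side ID4 (0.92), ID2 (0.53) and SMAD6 (0.72), targets of BMP signalling, and the receptors ACVR2B (0.78) and BMPR2 (0.66) were above mock. TGIF2 came to -0.96 at a pseudocount of 100, and the mean over the probe sets of ACVR1B was -0.67.

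The EGFR, RAS and MAPK list had no common direction, with 30 of 54 kept genes below mock and a median of -0.07. Its kinases MAP2K1 and MAPK3, which is ERK1, were lower: MAPK3 had a signal of 455 with mock and 226 with miR-34a (-0.92). FGFR1 (-0.71) and IGF1R (-0.64), both receptor kinases, were lower by less than 2-fold. AXL has the relatives TYRO3 (-0.60) and MERTK (-0.56), which lay in the same direction. EGR1, an immediate early transcription factor, had a signal of 846 with mock and 1666 with miR-34a (0.95), IER3 had 0.74 and DUSP6, an ERK phosphatase, 0.64. Among Hippo pathway and YAP target genes 17 of 26 kept were below mock with a median of -0.14, with YAP1 itself at -0.67 over 3 probe sets from -0.68 to -0.60. CCN2, a YAP target, had -0.48, and WWTR1, the partner of YAP1, had 0.20.

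In PI3K, AKT and mTOR signalling 14 of 34 kept genes were below mock, none passed 2-fold and the median was 0.05. RPTOR, the scaffold of mTORC1, had a signal of 402 with mock and 225 with miR-34a (-0.75), and PIK3R3, a regulatory subunit, had 0.84. Of 24 kept p53 target genes 12 were below mock and the median was 0.01, or 0.23 without cross-reacting classes of probe set. CDKN1A, the inhibitor p21, had a signal of 1071 with mock and 809 with miR-34a (-0.39). AEN, a nuclease induced by p53, had -1.001, on the 2-fold limit, and TP53INP1 had 0.88.

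Metabolic and organelle lists were close to mock. In fatty acid oxidation 17 of 25 kept genes were above mock with a median of 0.21, so ECHS1 at -2.05 stood apart from its list, whose next lowest member, ACAA2, had -0.35. Of 56 kept genes of the lysosome and autophagy, 44 were above mock, none passed 2-fold and the median was 0.18. LIPA, the lysosomal acid lipase, had a signal of 2429.6 with mock and 4095 with miR-34a (0.75), whereas ATG4B, a protease of autophagy, had -0.64 with 3 probe sets from -0.96 to -0.53. For NADH dehydrogenase subunits 28 of 32 kept genes were above mock but the median was only 0.09. LDHA, a reported target and the lactate dehydrogenase of glycolysis, had a signal of 21824 with mock and 14963 with miR-34a (-0.54).

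Several large families sat at the level of all genes. Cytosolic ribosomal proteins had a median of 0.02 over 57 kept genes, mitochondrial ribosomal proteins 0.00 over 75, proteasome subunits 0.03 over 43, solute carriers 0.03 over 216 and genes named ZNF 0.06 over 381. The unfolded protein response (0.06), NRF2 targets (0.05), peroxisome genes (0.08) and splicing factors (-0.08) lay close to it, and none of these 4 lists had a member past 2-fold. Within the solute carriers, SLC12A2, a cotransporter of sodium, potassium and chloride, had a signal of 1176 with mock and 415 with miR-34a (-1.43), though its other probe set had -0.19. SLC2A3, the glucose transporter GLUT3, had a signal of 1229.7 with mock and 3184 with miR-34a (1.35), with probe sets down to 0.10. ABCA1, which exports cholesterol, had a signal of 444 with mock and 1206 with miR-34a (1.38), and its other probe set had 1.09, so it met the agreement rule.

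Families grouped by symbol held single genes with large differences. Of 72 kept genes named CCDC, for coiled-coil domains, 50 were above mock and the median was 0.14. CCDC24 had a signal of 29.8 with mock and 235 with miR-34a (2.11), and CCDC157 had a signal of 56.8 with mock and 279 with miR-34a (1.81). Both started below the filter level. SEMA7A, a membrane-anchored semaphorin, had a signal of 25.9 with mock and 144 with miR-34a (1.61), in a family of 18 kept semaphorins and plexins with a median of 0.27. MMP10, a stromelysin, had a signal of 66.8 with mock and 222 with miR-34a (1.36), and in its family of 27 kept metalloproteinases the median was 0.14. XCL1, a lymphocyte chemokine, had a signal of 22.8 with mock and 158 with miR-34a (1.79), against a median of 0.19 for 30 kept cytokines, chemokines and growth factors. On the lower side stood GPR19, an orphan receptor, which had a signal of 653 with mock and 220.5 with miR-34a (-1.44), and PCDH12, a protocadherin, which had a signal of 137 with mock and 38.9 with miR-34a (-1.25). SEMA7A, MMP10 and XCL1 were below the filter level with mock too, and PCDH12 was below it with miR-34a, so each of these differences shrinks at a higher pseudocount.

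The other genes higher in agreement had no list in common. RESF1, a factor of retroelement silencing, had a signal of 779.9 with mock and 1794 with miR-34a (1.17). TMEM87B had a signal of 1298 with mock and 2909.8 with miR-34a (1.15). USP53, of the ubiquitin-specific protease family, had a signal of 364 with mock and 853 with miR-34a (1.16), and all 3 probe sets passed 2-fold. CASTOR1, an arginine sensor of the mTORC1 pathway, had 1.05, MUC15, a membrane mucin, 1.01, and ZNF117 1.03. LINC01770, a long noncoding RNA, had a signal of 60.7 with mock and 166 with miR-34a (1.10), and came to 0.73 at a pseudocount of 100. For CREBRF (0.71) and ABCC3 (0.99) the probe set used fell short of 2-fold while others passed it.

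Probe sets of a gene could also disagree. In 35 genes 1 probe set above the filter was at -0.5 or lower and another at 0.5 or higher. KCNIP3, a calcium-binding protein, was the gene with probe sets past 2-fold in both directions, -1.07 and 1.05, and its signal was low. TNRC6A, a partner of Argonaute in microRNA silencing, had 6 probe sets from -1.29 to 0.60 and 0.31 in the one used. For ANKRD13C 5 probe sets ran from -1.17 to 0.96. ATXN7L3B had -2.63 in 1 probe set and -0.96 in the brighter one. For such genes a single value does not describe the locus.

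Antisense transcripts were paired with the gene they are named after. Of 175 pairs with both kept, 73 had opposite signs and 3 had opposite differences of at least 0.5 in size. With 44.8% of all kept genes below mock, opposite signs are also common between unrelated genes, and a difference from them was not tested. KIF9-AS1 had a signal of 151.4 with mock and 20.1 with miR-34a (-1.81), while KIF9, a kinesin of the cilium, had a signal of 1710.3 with mock and 3819.8 with miR-34a (1.14). Of the 4 probe sets of KIF9, 1 lay at -0.11 and their mean was 0.88. HMMR-AS1 had a signal of 291 with mock and 70.5 with miR-34a (-1.66), and HMMR, a spindle protein, was lower too, at -0.74.

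The deposited arrays share one trimmed mean, as scaling would make them, so that equality says nothing of the cultures. The 45 spike-in probe sets had a median difference of 0.01 with an SD of 0.147, and GAPDH had -0.02 and ACTB 0.12. Human control probe sets differed by more: 3 for ribosomal RNA had -0.49, -0.31 and -0.26, and others reached -0.38 and 0.72. Of markers of the line's state, KRT18 (17498 with mock) and VIM (34003) were strong, whereas CDH1 (15.4) and EPCAM (21.2) were below the filter. Of other cell types, 4 of 12 leukocyte, 4 of 14 fibroblast or endothelial and 5 of 12 lung epithelial markers were kept. The kept ones were dim, with median signal levels of 105, 123 and 116, against 794 for all kept genes. They included CD3E (112.8 with mock and 70.0 with miR-34a). SFTPC (98.9 and 161.4) was kept through 1 of its 5 probe sets. PTPRC, PDGFRB and SCGB1A1 were below the filter on both arrays.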

How the data were processed

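RNA of NCI-H1299 cultures was read on a human Affymetrix expression array with 54675 probe sets. The linear intensity values were deposited by the authors and made with Affymetrix Expression Console, per the submitters' processing notes; its version is not given in the sources used here. All arrays share a trimmed mean of 500.1, to which they appear to have been scaled. From them log2(intensity + 32) of the deposited values was computed, and miR-34a minus mock was taken for the probe set with the highest mean level over the 3 arrays of each gene. Names came from the platform annotation matched to RefSeq: 41097 probe sets had 1 gene, 1801 several and were left out, and 11721 had none. Genes below the median intensity of probe sets other than controls (68.59) were left out. With 1 array a condition no p-value is given, and precision cannot be estimated.

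Genes were named by this rule: the 15 with the largest median over agreeing probe sets each way, up to 4 extremes of a list and 2 of a family each way, the 5 brightest past 2-fold each way, genes with probe sets past 2-fold both ways, the 10 largest with both arrays above the filter each way, those nearest to the limit, and FOSL1, MET, AXL, CDK4, CDK6, SIRT1, CD44, LEF1, GAPDH and ACTB. Further members of a list or of a complex, genes that met the agreement rule, and promoters were picked for their role after their values were seen. The lists, families and motifs were chosen with earlier results of these data known. Alternatives were another pseudocount or filter, other scalings, the mean of probe sets, probe sets without cross-reacting classes, and other size limits. The steps were tested on simulated data. Python 3.11.15 with numpy 2.4.6 and pandas 2.3.3 was used.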

Additional observations from a re-analysis of the deposited data

How the results depend on the processing

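No paired analysis was possible because each condition has 1 array. Counts depended on the size limit and on dim genes. The count of genes at least 2-fold lower (136) was 278 with no filter, 74 at a pseudocount of 100, 633 at 1.5-fold and 9 at 3-fold. The count at least 2-fold higher (145) was 380 with no filter, 81 with a filter at a signal of 200, 239 at a pseudocount of 1, 60 at a pseudocount of 100, 794 at 1.5-fold and 15 at 3-fold. The filter, the pseudocount and the size limit change by construction how many genes can pass. Lower in agreement (26) became 9 without cross-reacting classes of probe set, 162 at 1.5-fold and 2 at 3-fold. Higher in agreement (21) became 32 at a pseudocount of 1, 9 at 100, 11 without those classes, 144 at 1.5-fold and 2 at 3-fold. Leaving out those classes removes probe sets that the agreement rule needs, so both agreement counts can fall by construction. The median of the ephrin and Eph receptor genes turned from 0.287 to -0.069 with a filter at 200, KCNIP3 from 1.05 to -0.006 as the mean of probe sets that disagree, and TMEM174 from -1.23 to 0.528 without cross-reacting classes, for which the cause was not tested. Of 112 named genes past 2-fold, 66 stayed past it under each alternative run for them and 46 did not under at least 1. Of 71 list medians, 10 moved by more than the SD of the spike-ins with no filter. Dim genes have the widest spread, and a difference between cultures and one due to treatment cannot be told apart with 1 array each.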
